A study of Mus musculus with 14 samples.

Results

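The Ly6 genes Ly6d, Ly6a, Ly6c1, Ly6c2 and Ly6e were followed across mouse livers that differed in the Cul3 gene and in diet. They are 5 of the 43548 genes of the deposited table, found by their gene symbols, and all 5 passed the filter on low values (at least 1 FPKM in at least 3 libraries) that left 10870 tested genes. The members were chosen by their differences between genotypes and between diets in these FPKM values, so those differences are given as a description with no p-value.

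RNA came from livers of C57BL/6 mice carrying a floxed Cul3 gene, which encodes a scaffold of ubiquitin ligases. All mice ate the diet labelled CD or the diet labelled WD for 13 weeks, received an adeno-associated virus through the tail vein, and kept that diet for 5 more weeks. KO mice were given virus with Cre recombinase under the TBG promoter, which is active in hepatocytes, and WT mice virus without Cre, so both genotypes carry the floxed gene and the virus, and other liver cells of KO mice are meant to keep Cul3. There were 3 libraries each of WT and KO on CD and 4 each of WT and KO on WD, sequenced as 3' tags and given as FPKM, a fragment count scaled by transcript length and by the mapped fragments of the library. The labels do not say whether every library is a separate animal, so p-values reflect how these libraries vary, and that variation may be technical.

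Ly6 proteins are small and rich in cysteine. They share a domain with the urokinase receptor (the LU domain) and mostly sit on the outer cell surface through a lipid anchor, glycosylphosphatidylinositol (GPI). In mice a cluster of their genes lies on chromosome 15. Several members serve as markers of blood and vessel cells, and some respond to interferon, the signal of antiviral defence.

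On mm10 chromosome 15 the members lie within 349915 bases. Ly6d runs from 74762056 to 74763620 on the minus strand, Ly6e from 74955051 to 74959905 on the plus strand, Ly6a from 74994877 to 74998031 on the minus strand, Ly6c1 from 75044018 to 75048830 on the minus strand and Ly6c2 from 75108158 to 75111970 on the minus strand. All 5 are protein-coding.

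Ly6c1 and Ly6c2 are near copies of each other, and their promoter windows show it. The windows hold 250 bases before and 50 bases after the transcript start, from RefSeq on GRCm38.p6, at chr15:75048788-75049087 for Ly6c1 and chr15:75111922-75112221 for Ly6c2, both on the minus strand and printed 5′ to 3′. Capitals mark the 2 runs of at least 12 aligned bases that are identical in both.
Ly6c1: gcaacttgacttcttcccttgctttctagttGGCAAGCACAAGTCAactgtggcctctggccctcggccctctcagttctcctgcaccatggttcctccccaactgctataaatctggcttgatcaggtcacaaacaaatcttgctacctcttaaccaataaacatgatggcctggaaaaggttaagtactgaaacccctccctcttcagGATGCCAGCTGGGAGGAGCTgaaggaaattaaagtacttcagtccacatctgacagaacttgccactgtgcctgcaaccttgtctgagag
Ly6c2: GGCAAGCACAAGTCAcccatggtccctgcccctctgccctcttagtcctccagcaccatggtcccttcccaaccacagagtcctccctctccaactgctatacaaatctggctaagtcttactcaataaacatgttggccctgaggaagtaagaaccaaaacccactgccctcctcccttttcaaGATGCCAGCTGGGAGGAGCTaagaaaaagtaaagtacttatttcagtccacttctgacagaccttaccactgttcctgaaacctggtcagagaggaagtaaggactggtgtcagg

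Over 266 aligned bases, 78.2% were identical, and the longest shared run was 20 bases. Neither window held, on either strand, an interferon-stimulated response element (GAAA, then 2 bases of any kind, then GAAA, present in 3.44% of 32851 RefSeq windows of that length), a GAS element (TTCNNNGAA, 8.3%) or an antioxidant response element (TGACNNNGC, 12.4%). No match says only that these letters are not in these windows.

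The likeness reaches the end that 3' tags read. In the last 300 bases of the transcripts, 45.8% of the 271 windows of 30 bases in Ly6c1 occurred in another gene, all of them in Ly6c2, and 46.1% of those in Ly6c2 did, mostly in Ly6c1. For Ly6d the share was 0%, for Ly6a 3.3% and for Ly6e 1.1%. The sources used here do not say how reads that match several genes were treated, so the split between Ly6c1 and Ly6c2 is uncertain and their sum is given as well.

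Ly6d, known in mice as a marker of B-lineage lymphoid progenitors and in stratified epithelia, differed by both genotype and diet. In WT on CD it measured 0.236, 0.832 and 0 FPKM, and in KO on CD 43.6, 51.4 and 58.4 FPKM. In WT on WD it measured 7.90, 57.1, 21.8 and 33.5 FPKM, and in KO on WD 218, 159, 379 and 269 FPKM. The WT libraries on CD lay near or at 0, the KO libraries on WD stood above all others, and WT on WD and KO on CD overlapped, with the KO on CD library higher in 10 of 12 pairs.

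Group means of Ly6d were 0.356 ± 0.429 FPKM in WT on CD (SD, n = 3), 51.2 ± 7.41 in KO on CD (n = 3), 30.1 ± 20.8 in WT on WD (n = 4) and 256 ± 93.5 in KO on WD (n = 4). The difference of mean log2(FPKM + 1) between KO and WT was 5.30 ± 0.52 (SE) on CD and 3.28 ± 0.45 on WD. Between WD and CD it was 4.27 ± 0.49 in WT and 2.24 ± 0.49 in KO. Ranked from the top among 10870 genes, these differences stood at place 3 (KO against WT on CD), 22 (KO against WT on WD), 2 (WD against CD in WT) and 113 (WD against CD in KO). In all 4 comparisons every library of the one group lay above every library of the other, as it did for 18 of the tested genes (0.166%). The members were chosen for this pattern, so nothing is read from that share.

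**Figure D1:**
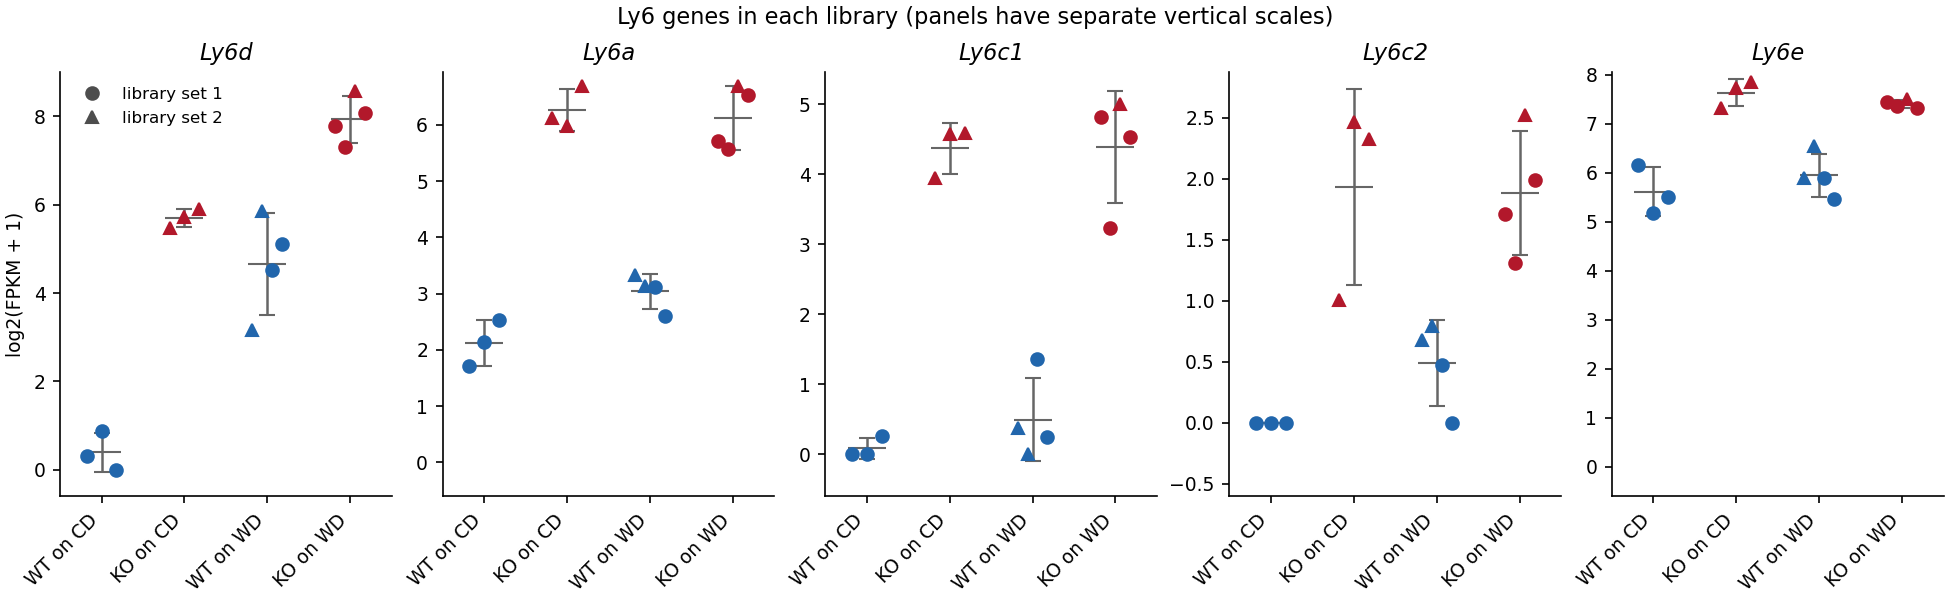
Each point is 1 library, by group on the horizontal axis, with log2(FPKM + 1) on the vertical axis of each gene's panel; bars are the mean and SD of these log2 values, circles and triangles mark the library sets 1 and 2. Ly6d groups do not overlap, except WT on WD with KO on CD, while the other members separate KO (red) from WT (blue) on both diets.

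Ly6a encodes Sca-1, used to isolate mouse blood stem cells, and is induced by interferon. It measured 2.27, 3.38 and 4.79 FPKM in WT on CD and 68.5, 62.0 and 101 in KO on CD. In WT on WD its values were 9.04, 7.77, 7.62 and 5.06 FPKM, and in KO on WD 51.6, 46.3, 102 and 90.7. Every KO library lay above every WT library, whatever the diet, and the KO libraries of the 2 diets overlapped. The log2(FPKM + 1) difference between KO and WT was 4.13 ± 0.33 on CD and 3.08 ± 0.29 on WD, and between WD and CD 0.92 ± 0.31 in WT and -0.14 ± 0.31 in KO. In WT each WD library was above each CD library (12 of 12 pairs), as in 9.22% of the tested genes, but limma did not call Ly6a there.

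Ly6c1 and Ly6c2 together make up the antigen Ly6C, Ly6c2 being known from inflammatory monocytes and Ly6c1 from endothelium. Ly6c1 measured 0, 0 and 0.193 FPKM in WT on CD, 14.5, 22.9 and 23.0 in KO on CD, 0.292, 0, 1.55 and 0.188 in WT on WD, and 27.1, 8.35, 30.9 and 22.1 in KO on WD. All KO libraries were at 8.35 FPKM or above and all WT libraries at 1.55 or below. Its KO and WT means differed by 4.29 ± 0.43 on CD and 3.90 ± 0.37 on WD (log2(FPKM + 1)), and its WD and CD means by 0.41 ± 0.40 in WT and 0.02 ± 0.40 in KO.

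Ly6c2 was low throughout. It was listed at 0 in all 3 WT libraries on CD, measured 1.01, 4.52 and 4.004 FPKM in KO on CD, 0.5998, 0.737, 0.393 and 0 in WT on WD, and 2.27, 1.48, 4.74 and 2.97 in KO on WD. The KO libraries again lay above the WT libraries on both diets, and the 2 KO groups overlapped. No fold is given against the group listed at 0. The KO and WT means of log2(FPKM + 1) on CD differed by 1.93 ± 0.38, a size that depends on the added 1. On WD the KO and WT means of log2(FPKM + 1) differed by 1.39 ± 0.33, and between the diets in KO the difference was -0.05 ± 0.36.

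The sum of Ly6c1 and Ly6c2 depends less on how reads shared by these genes were split, though division by transcript length and windows shared with Ly6a, Ly6g and Ly6i can still shift it. It ran from 0 to 0.193 FPKM in WT on CD, from 15.5 to 27.4 in KO on CD, from 0.188 to 1.95 in WT on WD and from 9.83 to 35.7 in KO on WD. The KO and WT ranges were apart on both diets, and the diets overlapped within each genotype. Ly6c2 held 6.54 to 16.5% of the sum in the KO libraries.

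Ly6e encodes an interferon-induced protein that in mice also serves as the receptor of the placental fusion protein syncytin-A. In WT on CD it was already at 70.5, 35.5 and 44.2 FPKM, and in KO on CD it measured 159, 213 and 230. In WT on WD its values were 58.3, 92.3, 58.6 and 43.0 FPKM, and in KO on WD 174, 163, 181 and 160. The lowest KO library was above the highest WT library, and the diets overlapped in both genotypes. The log2(FPKM + 1) difference between KO and WT was 2.02 ± 0.28 on CD and 1.47 ± 0.24 on WD, and that between WD and CD was 0.33 ± 0.26 in WT and -0.22 ± 0.26 in KO.

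In KO against WT, every KO library of each of the 5 members lay above every WT library, as in 26.7% of the tested genes on CD, 11.6% on WD and 5.15% on both diets. On WD against CD in KO, the same held for Ly6d and for 16.5% of the tested genes. Limma called 5 of 5 members higher in KO on CD, where it called 11.7% of the tested genes higher, and 5 of 5 higher in KO on WD, where it called 6.01%. It called 1 of 5, Ly6d, higher on WD in WT, against 0.662% of the tested genes, and again Ly6d higher on WD in KO, against 3.83%. Since these contrasts chose the members, nothing is read from the counts.

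**Figure D2:**
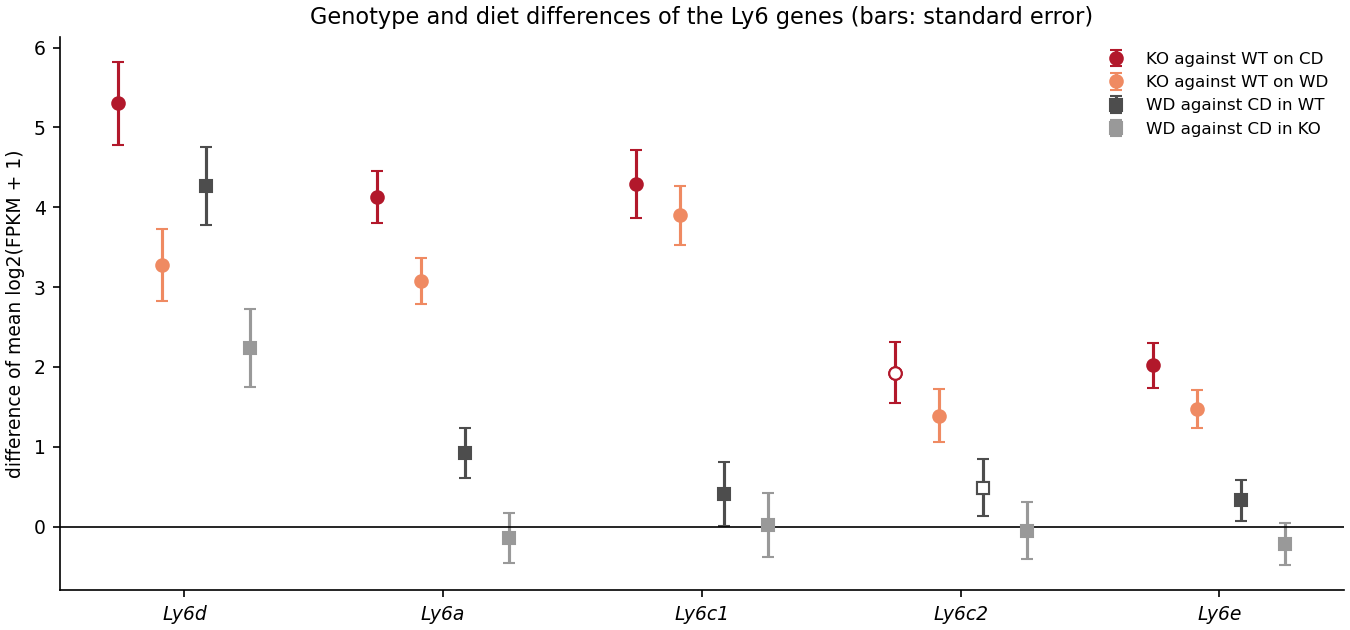
Differences of mean log2(FPKM + 1) with their standard errors, for each Ly6 gene and each of the 4 comparisons; hollow points are Ly6c2 against WT on CD, which was listed at 0, so no fold is read from them; the size of the Ly6d, Ly6c1 and Ly6c2 differences depends on the added 1. The genotype differences (circles) are above 0 for all 5 genes, and the diet differences (squares) are largest for Ly6d in both genotypes. These differences chose the members, so they are a description.

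Whether the KO difference itself depended on diet was described by the WD minus CD difference of the KO effect. This measure is the difference between the 2 KO differences that chose the members, in the same libraries. Its p-values for the members are therefore a description, and no support is read from them. For Ly6d it was -2.03 ± 0.69 on the log2(FPKM + 1) scale (limma adjusted p = 0.0964), and for Ly6a -1.05 ± 0.44 (limma adjusted p = 0.146). Ly6c1 gave -0.39 ± 0.57 (limma adjusted p = 0.695), Ly6e -0.56 ± 0.37 (limma adjusted p = 0.349) and Ly6c2, with its 0 values, -0.54 ± 0.51 (limma adjusted p = 0.518). By limma 0 of 5 members were called, against 0.34% of the tested genes (37 genes, with 2924 at an unadjusted p under 0.05). Of the members, 2 had an unadjusted p under 0.05 in limma. A missed threshold does not show that the KO effect was alike on the 2 diets.

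The scale decides the direction for Ly6d. On the log2 scale its KO difference was smaller on WD than on CD, but in FPKM it was larger, at 50.8 FPKM on CD and 226 FPKM on WD. Ly6c1 also turned, with KO differences of 20.1 FPKM on CD and 21.6 on WD. Ly6a (73.8 and 65.3 FPKM), Ly6c2 (3.18 and 2.43) and Ly6e (150 and 107) were smaller on WD on both scales. The linear scale was chosen after the values were seen.

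The libraries fell into 2 sets that the labels do not name, found from FPKM ratios shared between sparse genes (8 libraries in set 1 and 6 in set 2). All WT libraries on CD were in set 1 and all KO libraries on CD in set 2, so within CD genotype and set cannot be told apart. Among the tested genes limma called 120 higher and 638 lower in set 2, and none of the 5 members. Their set 2 minus set 1 values on the log2 scale were 0.19 ± 0.50 for Ly6d (limma adjusted p = 0.855), 0.54 ± 0.27 for Ly6a (limma adjusted p = 0.25), -0.01 ± 0.41 for Ly6c1 (limma adjusted p = 0.995), 0.65 ± 0.31 for Ly6c2 (limma adjusted p = 0.23) and 0.36 ± 0.24 for Ly6e (limma adjusted p = 0.39).

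The sets are not sharp, since library pairs within set 2 shared as little as 2.02% of such ratios and pairs between sets up to 3.82%. A placeholder value of the gene Yam1 marked the set 1 libraries, except that KO on WD replicate 3, of set 2, held it and replicate 4, of set 1, did not. On WD both genotypes had libraries of both sets by this split, KO replicate 3 being the KO library of set 2. For Ly6d in set 1 the WT libraries ran from 21.8 to 33.5 FPKM and the KO libraries from 159 to 269, and in set 2 the WT libraries measured 7.90 and 57.1 and the KO library 379. The other members were likewise higher in KO within each set, and since every KO library on WD lay above every WT library on WD for all 5 members, this holds whichever set replicates 3 and 4 belong to. On CD set and genotype coincide, so any fit that includes the set takes the set difference from the WD libraries alone. It carries that difference over to CD, and it depends on the unsure set of KO replicate 3. In a fit that included the set, the KO difference on CD was 5.11 ± 0.73 for Ly6d, 3.60 ± 0.40 for Ly6a, 4.29 ± 0.60 for Ly6c1, 1.28 ± 0.46 for Ly6c2 and 1.66 ± 0.35 for Ly6e (log2(FPKM + 1)). Limma then no longer called Ly6c2 in that comparison, nor Ly6d on WD in KO, whose difference was 2.38 ± 0.62.

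The targeted gene Cul3 stood at 23.9, 29.6 and 25.8 FPKM in WT on CD and at 18.3, 15.4 and 11.3 in KO on CD. WT libraries on WD held 12.3, 7.46, 25.9 and 17.97 FPKM, and KO libraries on WD 24.3, 26.6, 18.5 and 24.3. KO libraries were the lower ones on CD, where genotype and set cannot be told apart. On WD the genotypes overlapped, with a higher mean in KO (23.4 FPKM) than in WT (15.9 FPKM). By library set, Cul3 ran from 17.97 to 29.6 FPKM in set 1 and from 7.46 to 18.5 in set 2, and the part of the set was not tested. A 3' tag can lie outside the deleted part of the gene, so these values test neither whether Cul3 was deleted nor whether a library is labelled rightly.

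The other LU-domain genes were mostly not seen in liver. Of 40 listed, 37 were in the table, 24 of those were at 0 in every library, 9 were above 0 in at least 1 library but under the filter, and 4 were tested. The tested genes were Ly6i, Gpihbp1 (which carries lipoprotein lipase across capillary endothelium) and the complement inhibitors Cd59a and Cd59b, and limma called 0 of 4 in any of the 5 comparisons, with at most 1 of 4 at an unadjusted p under 0.05 in a comparison. Their median log2 difference was -0.77 between KO and WT on CD, where that of all tested genes was 0.18, and -0.17 on WD, where it was 0.23. In a fit that included the library set, the median on CD was -0.06. Ly6g, the neutrophil marker of the cluster, was above 0 in 1 library only, at 0.164 FPKM.

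Few neighbours of the members were tested. Between the outermost members, 18 other genes are annotated and 1 was tested, Ly6i, whose adjusted p by limma was 0.223 on CD and 0.154 on WD. Within 1000000 bases on either side of the members, 92 genes are annotated, 15 of them tested besides the members, and limma called 1 of these 15 in any comparison. This was 9030619P08Rik, annotated as a transcribed pseudogene at 75427606 to 75431829 on the minus strand.

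9030619P08Rik followed another course than Ly6d. Its mean was 11.4 ± 1.56 FPKM in WT on CD (SD, n = 3), 64.9 ± 6.44 in KO on CD (n = 3), 33.7 ± 6.95 in WT on WD (n = 4) and 35.0 ± 5.32 in KO on WD (n = 4). It rose in KO on CD by 2.42 on the log2(FPKM + 1) scale (limma adjusted p = 8.82e-06) and on WD in WT by 1.48 (limma adjusted p = 0.00157), while its KO difference on WD was 0.06 (limma adjusted p = 0.853). Its KO effect differed between diets by -2.36 ± 0.26 (limma adjusted p = 0.00216), and the call held when the fit had a term for the library set (adjusted p = 0.0163 by limma). Its fall on WD in KO (-0.88, limma adjusted p = 0.021) was not called with that term (limma adjusted p = 0.0573), nor when any KO library on CD, or replicate 2 or 4 of KO on WD, was left out (limma adjusted p = 0.0523 to 0.0641).

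**Figure D3:**
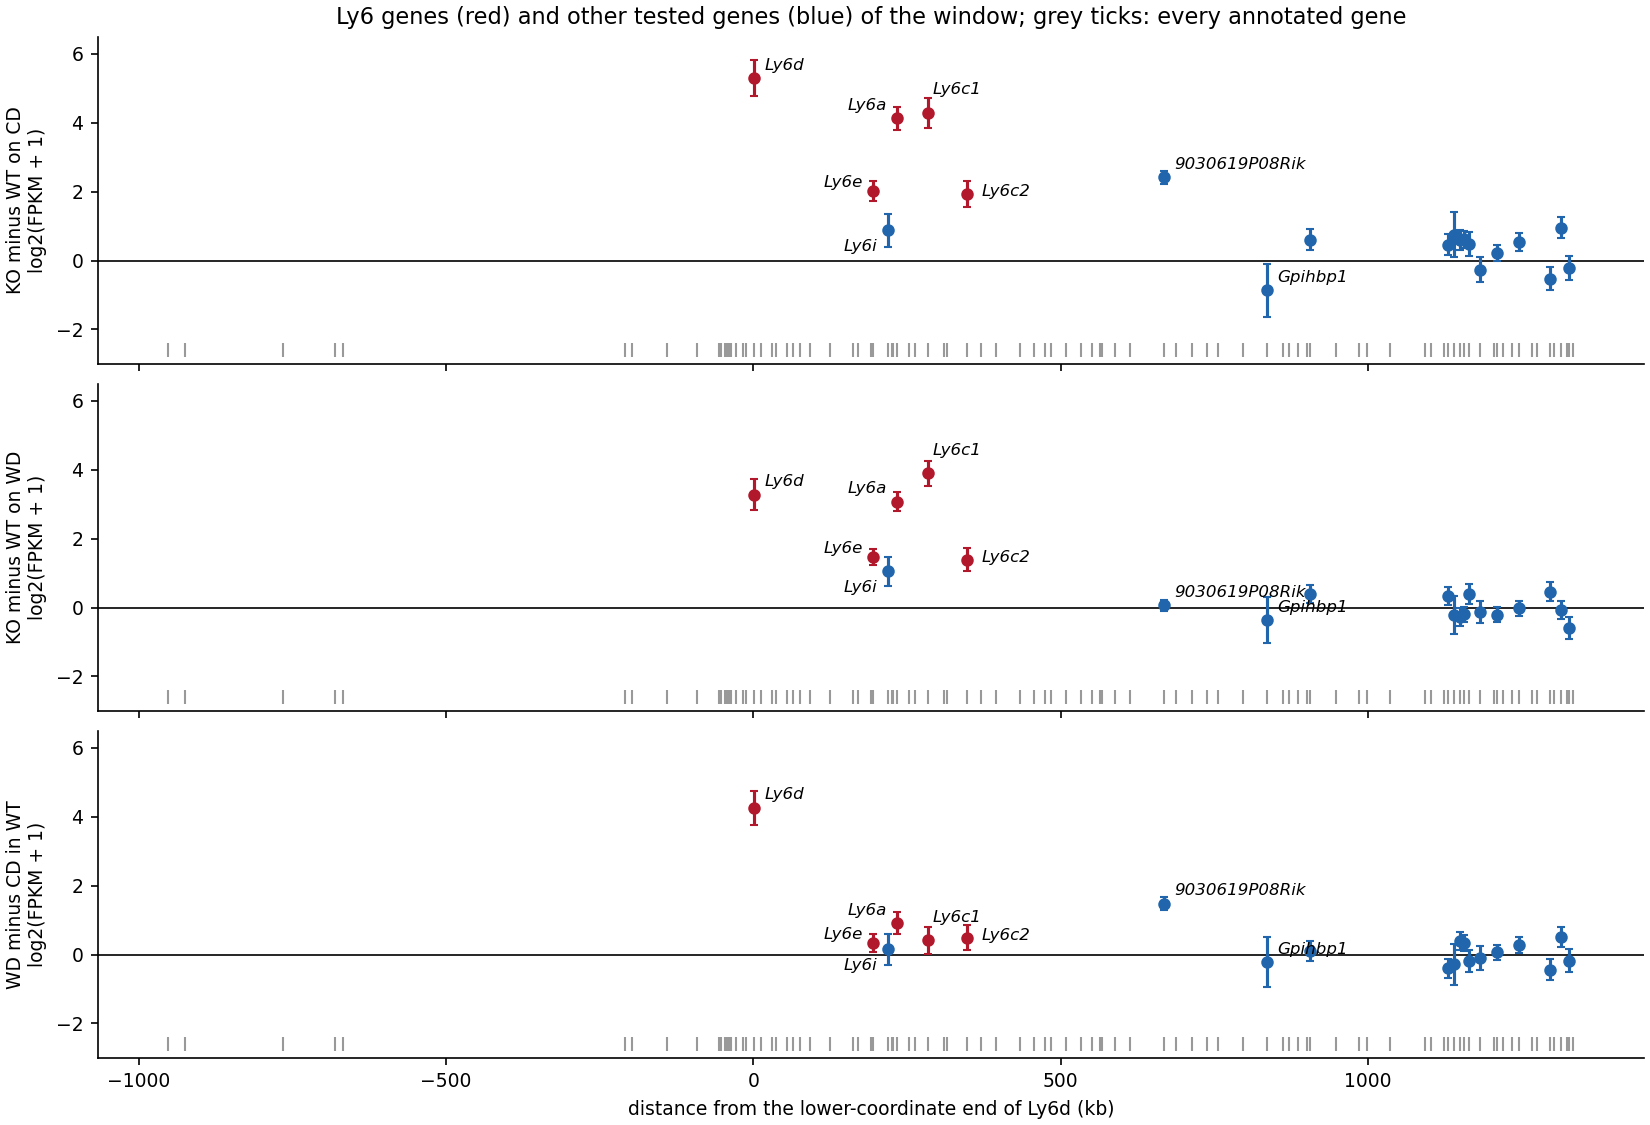
Genes of the window by distance from the lower-coordinate end of Ly6d in kilobases (horizontal axis) with their difference in mean log2(FPKM + 1) and its standard error (vertical axis), for KO against WT on CD, on WD, and for WD against CD in WT; grey ticks are all annotated genes. The Ly6 members (red) stand above most tested neighbours (blue) in the upper panels, and in the lowest panel Ly6d (4.27) and 9030619P08Rik (1.48) are highest.

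Likeness across the 14 libraries set Ly6d apart from its relatives as a description. Pearson's r of log2(FPKM + 1) was 0.765 to 0.821 between Ly6d and the other members, and 0.916 to 0.969 among Ly6a, Ly6c1, Ly6c2 and Ly6e. The libraries share groups and sets, so r carries no p-value. Ly6d was set against the other members for its rise with diet in these same libraries, so its lower r restates that choice. Among 4639 genes whose mean reached 5 FPKM, Ly6d was most like Acnat2 (r = 0.956), Ifi27l2b (0.950), Wipf3 (0.948), Smpd3 (0.945), Pydc4 (0.938), Bbx (0.935), Cltc (0.934) and Parp14 (0.930).

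These genes differ among themselves in size of change. Ifi27l2b, of a family of interferon-inducible genes, had means of 5.30 FPKM in WT and 57.9 in KO on CD, and of 29.6 in WT and 142 in KO on WD. Smpd3, a neutral sphingomyelinase, had means of 0.574, 10.4, 4.17 and 12.7 FPKM in the same order, and Cltc, the clathrin heavy chain, 18.4, 25.6, 25.9 and 29.9. In all of them the mean of WT on WD lay above that of WT on CD, as for Ly6d. The same held for the other members and for the genes most like them, so it does not set Ly6d apart.

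The other members were most like genes that separate by genotype. Ly6a was most like Cdkn1c (r = 0.984), a cell cycle inhibitor, Ifi44 (0.981) and Irf7 (0.971), Irf7 being a transcription factor of the interferon response. Ly6c1 was most like Cdkn1c (0.986), Esd (0.976) and Rtp4 (0.975), Ly6c2 most like Cdkn1c (0.947), Shisa5 (0.938) and Slc35d1 (0.925), and Ly6e most like Tpm1 (0.978), Bptf (0.965) and Slc48a1 (0.962). Cdkn1c had means of 1.51 FPKM in WT on CD, 13.4 in KO on CD, 2.44 in WT on WD and 12.5 in KO on WD, an order with KO high on both diets.

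Interferon response genes were higher in KO. Their list was written from textbook knowledge but with earlier results of these data known. It holds Ifi44, Irf7, Rtp4 and Parp14, which are among the genes most like the members. By limma 18 of 30 tested rose and 0 fell in KO on CD (median 1.39 on the log2 scale, against 0.18 for all tested genes), and 22 rose and 0 fell in KO on WD (median 1.27, against 0.23). On WD against CD, 2 of 30 rose in WT (Irf7 and Ifi27l2a) and 2 in KO (Isg15 and Cxcl10). Isg15, a ubiquitin-like protein of antiviral defence, had means of 0.391 FPKM in WT on CD, 3.85 in KO on CD, 1.48 in WT on WD and 9.90 in KO on WD, and Irf7 had 3.86, 46.3, 9.94 and 41.3. In the fit that included the library set, 8 of 30 were called in KO on CD and 23 in KO on WD, and 0 between diets in either genotype. Quantile normalization and median centring each gave 14 in KO on WD. The summed FPKM of the list ran from 156 to 174 in WT on CD, 379 to 494 in KO on CD, 181 to 348 in WT on WD and 679 to 867 in KO on WD, and its part in the Ly6 differences was not tested.

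Targets of NRF2, the stress-response factor that Cul3 ligases mark for degradation, also rose in KO. By limma 16 of 26 rose and 0 fell on CD (median 1.04) and 18 rose and 0 fell on WD (median 1.53). Gstm1, a glutathione transferase, went from 1954 FPKM in WT on CD to 31040 in KO on CD. In the fit that included the set, 8 rose on CD and 17 on WD. On WD against CD in WT, limma called 0 of 26, with a median difference of -0.25. There 10 of the 26 had an unadjusted p under 0.05, beside 1723 of the 10870 tested genes. In KO it called 2 higher and 0 lower (median 0.31), and 0 in the fit that included the set.

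**Figure D4:**
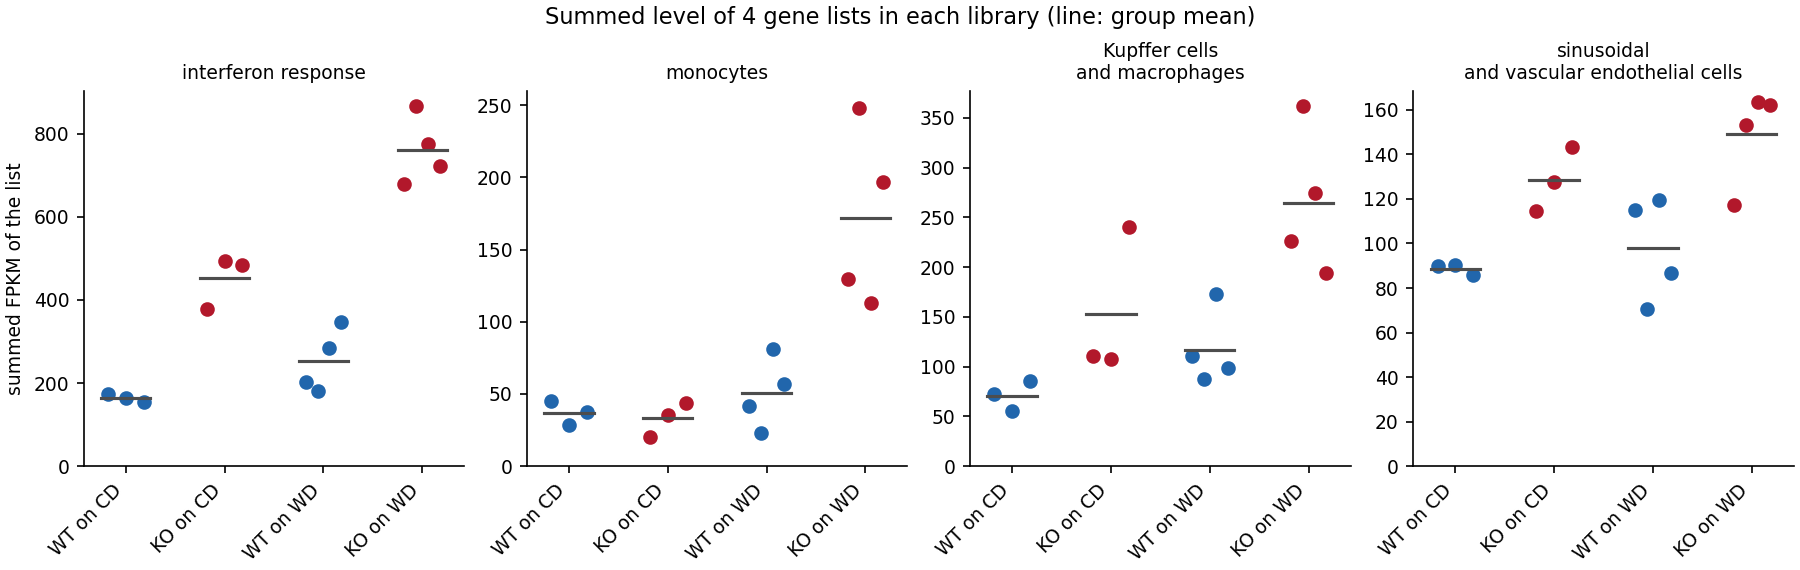
Summed FPKM of 4 gene lists (vertical axis, from 0) in each library by group, with a line at the group mean; red is KO and blue is WT. Interferon response genes separate all KO from all WT libraries, the monocyte sum, which is mostly Plac8 in KO on WD, stands apart in that group alone, and macrophage and endothelial sums are higher in KO on CD than in WT on CD.

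Markers of the cells that carry Ly6 proteins were set beside these values. In bulk liver, more cells of a type and more RNA per cell cannot be told apart. Of all tested genes limma called 11.7% higher in KO on CD and 6.01% in KO on WD. On WD against CD it called 0.662% higher in WT and 3.83% in KO. At an unadjusted p under 0.05 in limma stood 3637 of the 10870 tested genes in KO on CD and 2546 in KO on WD. On WD against CD there were 1723 in WT and 3088 in KO. The list counts below stand beside these shares and counts. Monocyte markers, whose cells carry Ly6c2, summed to 28.4 to 45.4 FPKM in WT on CD and 20.4 to 44.0 in KO on CD, which overlap, and limma called 0 of 6 tested, with 0 at an unadjusted p under 0.05. On WD they summed to 22.7 to 81.2 in WT and 113 to 248 in KO, and limma called 1 of 6 tested, Plac8, higher in KO, a call lost with median centring. Plac8 alone held 129 of the mean sum of 172 FPKM in KO on WD. The part of this list in the Ly6 differences was not tested on either diet. Of the defining markers Ccr2 reached at most 1.24 FPKM and Chil3 was at 0 in 5 libraries.

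Endothelial markers, whose cells carry Ly6c1 and Ly6a, summed to 85.9 to 90.2 FPKM in WT on CD, 115 to 144 in KO on CD, 70.7 to 120 in WT on WD and 117 to 164 in KO on WD. By limma 2 of 12 rose on CD, the scavenger receptor Stab2 and the hyaluronan receptor Lyve1, and 2 of 12 on WD, Lyve1 and Oit3, and 0 fell on either diet. The list's median difference was 0.37 on CD and 0.49 on WD, and its defining marker Pecam1 had means of 3.23 FPKM in WT and 4.83 in KO on CD, and of 5.90 in WT and 8.60 in KO on WD. Fitted with a term for the set, 0 of 12 were called on CD and 1 on WD, and quantile normalization and median centring each gave 1 on CD and 1 on WD. The part of this list in the Ly6 differences was not tested.

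Macrophage markers summed to 55.3 to 85.6 FPKM in WT on CD, 108 to 240 in KO on CD, 87.4 to 173 in WT on WD and 194 to 362 in KO on WD. By limma 1 of 11 rose on CD, the Kupffer cell lectin Clec4f, and 4 of 11 on WD, which were Clec4f, Vsig4, C1qc and Cd68, with 0 lower. At an unadjusted p under 0.05 in limma there were 7 of 11 on CD and 10 of 11 on WD, beside 3637 and 2546 of the 10870 tested genes. The list's median difference was 0.94 on CD and 1.09 on WD, against 0.18 and 0.23 for all tested genes. Between diets limma called 0 of 11, with medians of 0.70 in WT and 0.76 in KO, against 0.04 and 0.09. Clec4f on CD was not called in the fit that included the set, nor with quantile normalization, and on WD 3 of 11 were called with the set and 2 with quantile normalization or median centring. Their part in the Ly6 differences was not tested. Neutrophil markers ran from 0.696 to 13.1 FPKM in WT on CD, 13.0 to 41.0 in KO on CD, 11.8 to 158 in WT on WD and 31.8 to 234 in KO on WD, and 1 of 3 tested (Camp, an antimicrobial peptide) rose on WD in KO, a call lost with quantile normalization and in the fit that included the set. With genotype, limma called 0 of 3 on either diet, and 1 of 3 had an unadjusted p under 0.05 on each.

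Lymphoid and squamous markers were set beside Ly6d. B cell markers summed to 2.31 to 3.48 FPKM in WT on CD, 2.12 to 7.49 in KO on CD, 0.235 to 6.02 in WT on WD and 1.43 to 6.84 in KO on WD, so all groups overlapped. Limma called 0 of 4 B cell markers in any comparison, with at most 1 of 4 at an unadjusted p under 0.05, though median centring gave 1 lower on WD in KO, and Cd79a, a part of the B cell receptor, was at 0 in 13 libraries.

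The squamous keratins Krt5 and Krt14 were at 0 in all 14 libraries and Trp63, a regulator of stratified epithelia, in 12. The squamous list summed to 0 to 0.0638 FPKM in WT on CD, 0 to 2.57 in KO on CD, 0.820 to 4.16 in WT on WD and 1.17 to 5.17 in KO on WD. Its WT libraries on CD lay below all WD libraries, as for Ly6d, but the same held for the interferon and macrophage sums. The part of the squamous list in the Ly6d differences was not tested. The only gene of the list that was tested, Sprr1a of the cornified cell envelope, had means of 0 FPKM in WT and 0.967 in KO on CD, and of 1.93 in WT and 2.92 in KO on WD. Limma called it in 0 of the 5 comparisons, and its unadjusted p was under 0.05 on WD against CD in both genotypes. Of the plasmacytoid dendritic cell markers, Siglech reached at most 0.587 FPKM, Ccr9 0.541 and Bst2 2.50, and the list's sum was mostly Tcf4, a gene that many cell types express. T and NK cell markers summed to 0.289 to 7.04 FPKM. Limma called 0 of 2 tested in each of these lists, with at most 1 of 2 at an unadjusted p under 0.05 in a comparison, and 1 of the T and NK cell markers was called lower in KO on CD with quantile normalization or median centring.

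Ductular markers summed to 4.09 to 24.1 FPKM over all libraries, and Sox9 rose in KO on WD and Krt23 on WD in KO, of 3 tested. Sox9 was not called with quantile normalization, with median centring or in the fit that included the set, and Krt23 not in the last of these. Stellate and fibroblast markers summed to 117 to 202 FPKM, and Lrat and Col3a1 rose on WD in KO, of 7 tested, with 0 of 7 called in the fit that included the set. Hepatocyte markers were abundant in every library, with Alb at 1942 to 3858 FPKM, as the label liver says. Of 12 hepatocyte markers, limma called Apoc3 and Ahsg higher and Cps1 and Tat lower in KO on CD, 0 in KO on WD (2 at an unadjusted p under 0.05), and 1 lower on WD in each genotype (Cps1 in WT, Ttr in KO). In the fit that included the set, 0 of 12 were called in KO on CD and 0 on WD in KO, and on WD in KO quantile normalization gave 0 and median centring 4 lower.

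Enzymes that make, attach and remodel the GPI anchor, which Ly6 proteins need to reach the surface, were followed as well. By limma 2 of 19 rose in KO on CD, Pigv (a mannosyltransferase) and Pgap2 (a lipid-remodelling factor). Dpm1 (a subunit of dolichol phosphate mannose synthase) was the 1 that fell. Of all 10870 tested genes 1269 rose and 364 fell there. The list's median was 0.26, against 0.18 for all genes. Pgap2 went from 11.9 FPKM in WT on CD to 34.0 in KO on CD, and Dpm1 from 206 to 72.4. The summed FPKM of the list went against its median on CD, at 362 to 396 in WT and 251 to 294 in KO, which do not overlap, and on WD it ran from 180 to 338 in WT and 330 to 492 in KO, which do. Dpm1 had means of 107 FPKM in WT on WD and 200 in KO on WD. On WD limma called 0 of 19 between genotypes (5 at an unadjusted p under 0.05, median 0.31). Between diets it called 0 of 19 in WT (4 at an unadjusted p under 0.05) and 1 in KO (Pgap1, lower). In the fit that included the library set, 0 of 19 were called in KO on CD and 1, higher, in KO on WD, and quantile normalization and median centring each gave 1 lower in KO on WD.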

How the data were processed

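The authors deposited 1 table of FPKM values for 43548 genes in 14 mouse liver libraries of a stranded 3' tag kit. Cufflinks and mm10 are named per the submitters' processing notes; depth is unknown, with the aligner, annotation and read totals not given in the sources used here. FPKM is scaled by the fragments mapped in a library, and 3' tags divided by transcript length do not compare levels between genes. FPKM summed to 443818 to 523079 per library, with 8600 to 9970 genes at 1 FPKM or more. Yam1 held a placeholder in 8 libraries and was left out. No 2 libraries were copies (highest r of log2 values 0.958).

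From these values, log2(FPKM + 1) was fitted with limma 3.58.1 in R 4.3.3 (trended variance, 1 mean per group, 10 residual degrees of freedom). Genes at 1 FPKM or more in at least 3 libraries were tested (10870), with a call where the Benjamini-Hochberg adjusted p over all of them was under 0.05. The fit was tested on simulated data. Library sets came from average-linkage clustering of library pairs by how many sparse genes (those seen in no more than 8 libraries) had a common FPKM ratio (window 0.004, log2).

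The members and lists were chosen with earlier results of these data known. Named genes are Cul3, the members, called genes of the other LU-domain list and within 1000000 bases of the cluster, each list's first 3 markers and up to 3 called genes, and the genes most alike (8 for Ly6d, 3 for the others, unnamed gene models left out); other called genes of short lists were named after their values were seen. Positions are from GENCODE M21 on mm10. Motifs were searched on both strands. Alternatives were a pseudocount of 0.1, no filter, quantile normalization, median centring, the library set as a term, a replicate block, each library left out, and each set alone; 2 were added after seeing the data (the linear scale, and the ratio of mean FPKM).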

Additional observations from a re-analysis of the deposited data

Results flagged for a closer look

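The transcribed pseudogene 9030619P08Rik had 1 library far from the rest of its group. In KO on WD it measured 42.9 FPKM in replicate 1 and 32.4, 31.4 and 33.3 FPKM in the others, and the gap from replicate 1 to its nearest neighbour was 0.832 of the range of the group, above the critical value of Dixon's test for 4 libraries. The KO effect on 9030619P08Rik also differed between the diets, by -2.36 on the log2 scale (limma adjusted p = 0.00216).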

How the results depend on the processing

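All 5 members stayed higher in KO on both diets in every alternative fit. Ly6d was called in KO on CD and on WD in WT in all of them, in KO on WD in 21 of 22, and on WD in KO in 13 of 21. These comparisons chose the members, so their calls only describe how the fits differ, and no support is read from them. The calls of Ly6d on WD in KO were lost with a pseudocount of 0.1, with the set as a term, in set 2 alone, and without any 1 of the KO libraries on CD or KO on WD replicate 4. In KO on WD, Ly6d, Ly6a, Ly6e and Ly6c2 were not called in set 2 alone, and Ly6c2 not with quantile normalization, with median centring, or without WT on WD replicate 4 or KO on WD replicate 3 or 4. The difference of Ly6d in KO on CD was 7.33 and on WD in WT 6.26 with a pseudocount of 0.1, and in KO on WD 4.06 within set 2 alone. With a pseudocount of 0.1, Ly6c1 was at 7.11 in KO on CD and 5.75 in KO on WD, and Ly6c2 at 4.79 and 2.73. For Ly6d, leaving out 1 library at a time gave 5.11 to 5.54 in KO on CD, 2.77 to 3.68 in KO on WD, 3.86 to 4.77 on WD in WT, 2.03 to 2.45 on WD in KO, and -2.53 to -1.62 for the difference of the KO effect. Over the other alternative fits on the log2 scale, that last difference ran wider, from -4.0 to -1.79. The difference of the KO effect was called for 0 members in 20 alternative fits each, with limma adjusted p of 0.0655 to 0.866 for Ly6d and 0.0803 to 0.965 for Ly6a. It turned positive in mean FPKM for Ly6d (175.3) and Ly6c1 (1.55), where the linear scale itself is the change, and for Ly6c2 with the set as a term (0.27), where the cause was not tested.

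Counts of called genes moved more. With the set as a term they were 126 in KO on CD, 76 on WD in WT, 38 on WD in KO and 2 for the difference, against 1633, 141, 693 and 37. Set 1 alone gave 314 in KO on WD and 50 on WD in WT, and set 2 alone 32 in KO on WD and 19 on WD in KO, with fewer libraries, against 762 in KO on WD with all. No filter gave 351 on WD in KO and 21 for the difference, and a pseudocount of 0.1 gave 24 for the difference. Median centring gave 457 in KO on WD. Leaving out 1 library gave 591 to 2466 in KO on CD, 442 to 801 in KO on WD, 40 to 141 on WD in WT, 113 to 1767 on WD in KO and 4 to 1058 for the difference. Split by direction, 1269 rose and 364 fell in KO on CD, which became 618 and 506 with quantile normalization and 713 and 585 with median centring, and 653 and 109 in KO on WD became 274 and 246, and 227 and 230. On WD in KO, 416 and 277 became 230 and 317, and 301 and 631; on WD in WT, 72 and 69 became 52 and 75 with median centring; and for the difference, 24 and 13 became 19 and 17 with quantile normalization. The median gene's difference went from 0.18 to 0.09 and 0.07 in KO on CD, from 0.23 to -0.04 and -0.06 in KO on WD, from 0.09 to -0.08 and -0.10 on WD in KO, and from 0.03 to -0.15 and -0.15 for the difference of the KO effect.

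The replicate numbers recur across groups, but the 18 same-number pairs had correlations of -0.30 to 0.16, and 2 were over 0.1. No pairing was seen, but with so few libraries per group this cannot show what the numbers mark. With a replicate block the counts were 586, 530, 60, 85 and 4 in the order KO on CD, KO on WD, WD in WT, WD in KO and the difference, and Ly6d on WD in KO was no longer called, nor was the fall of 9030619P08Rik there (limma adjusted p = 0.0667).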
